A study of Mus musculus with 84 samples.

Results

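The 8 genes described here, Wdfy1, Mid1, Zfp810, Blm, Armcx5, Slc6a6, Tatdn2 and Nnt, were picked because their RNA was higher in ob/ob than in wild-type (WT) mice in tissue after tissue. They are 8 of the 49671 genes of the count table, and all 8 were measured well enough to be fitted in every tissue, as were 11350 genes in all. The choice used the ob/ob versus WT difference in each tissue on each diet, its size and how even it was, with no fixed limit. Those differences are therefore given as a description without a test. Tests are kept for diet, which the choice did not use by itself, and for neighbouring and related genes. The latter were tested on the same ob/ob versus WT contrast in the same libraries. On the log2 scale the 14 differences, 7 tissues on 2 diets, had a standard deviation of 0.22 for Wdfy1, 0.34 for Armcx5, 0.36 for Tatdn2, 0.37 for Blm, 0.53 for Nnt, 0.61 for Slc6a6, 0.63 for Zfp810 and 0.83 for Mid1.

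RNA was sequenced from liver, heart, skeletal muscle, aorta, epididymal fat, hypothalamus and hippocampus of 12 mice. The WT mice carry working copies of the leptin gene Lep, and the ob/ob mice carry its ob allele on both chromosomes, a nonsense mutation that leaves them without leptin and obese. Mice of each genotype were kept on normal (ND) or on high-fat chow (HFD) and dissected at 20 weeks, of age or of diet, which the labels do not settle. Each of the 4 groups had 3 mice, which gave 84 libraries in all. Epididymal fat is a depot of male mice, and the labels do not state the sex further. Neither the inbred background of the mice, nor their supplier, nor whether WT and ob/ob mice were littermates is given in the sources used here, so the Lep genotype and any other inherited difference between the 2 sets of mice cannot be told apart. Sample titles give a number within each group, and libraries of the same group and number were read as the same mouse in all 7 tissues. The 14 comparisons of ob/ob with WT are then not independent of each other.

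These genes do not form a known pathway. Wdfy1 encodes an early endosome protein that binds a phosphoinositide lipid through its FYVE domain and acts as an adaptor in Toll-like receptor signalling. Mid1 is a ubiquitin ligase of the TRIM family bound to microtubules, and its gene lies at the edge of the pseudoautosomal region that the X and Y chromosomes of laboratory mice share. Blm is the RecQ helicase lost in Bloom syndrome, which unwinds recombination intermediates, and Tatdn2 belongs to the TatD family of nucleases. Zfp810 is a zinc finger protein and Armcx5 an X-linked protein with armadillo repeats. Slc6a6 carries taurine into cells, and Nnt, in the inner mitochondrial membrane, uses the proton gradient to make NADPH. The substrain C57BL/6J is known to carry a deletion within Nnt that leaves no protein, while related substrains have the whole gene. Counts per gene do not show which exons were read.

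The genes lie on 6 chromosomes. In GRCm38, Wdfy1 spans 79702262 to 79776143 on chromosome 1, Nnt 119335448 to 119408997 on chromosome 13, Blm 80454733 to 80535119 on chromosome 7 and Zfp810 22276748 to 22307648 on chromosome 9, all on the minus strand. Mid1 (169685199 to 170005736) and Armcx5 (135742733 to 135747322) are on the plus strand of X. Slc6a6 (91684053 to 91759066) and Tatdn2 (113697050 to 113711069) share chromosome 6 with Lep, at 62.6 and 84.6 Mb from its start. Reads were counted without regard to strand, so reads of overlapping genes are uncertain. Wdfy1 shares 126 bases with Mrpl44 on the other strand, and Armcx5 lies within Gprasp1 on the same strand. Blm shares 468 bases with the pseudogene Ndufab1-ps on the other strand, whose median level over all libraries was 5.01 CPM. Mid1 overlaps several antisense genes, whose median levels stayed under 1 CPM (counts scaled to a common library size).

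Because the genes were higher together, the promoters that the reference table holds are shown for comparison. RefSeq's promoter table for GRCm38.p6 held 5 of the 8 genes, namely Mid1, Zfp810, Blm, Armcx5 and Tatdn2. The 120 bases before the outermost annotated start are printed 5′ to 3′ along the gene, and no annotated exon lay in them. Capitals mark the motifs found.
Blm, chr7:80535120-80535239, minus strand: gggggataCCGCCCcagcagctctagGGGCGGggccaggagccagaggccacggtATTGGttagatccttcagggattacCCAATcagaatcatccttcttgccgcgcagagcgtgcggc
Zfp810, chr9:22307649-22307768, minus strand: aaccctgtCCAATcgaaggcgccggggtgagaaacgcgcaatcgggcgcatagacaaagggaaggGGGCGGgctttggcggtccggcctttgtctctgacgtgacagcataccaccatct
Tatdn2, chr6:113696930-113697049, plus strand: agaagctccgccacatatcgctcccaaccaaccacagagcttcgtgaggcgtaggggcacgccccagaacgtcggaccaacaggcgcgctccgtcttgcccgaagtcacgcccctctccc
Armcx5, chrX:135742572-135742691, plus strand: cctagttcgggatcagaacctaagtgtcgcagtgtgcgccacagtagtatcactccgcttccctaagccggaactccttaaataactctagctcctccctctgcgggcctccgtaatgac
Mid1, chrX:169685079-169685198, plus strand: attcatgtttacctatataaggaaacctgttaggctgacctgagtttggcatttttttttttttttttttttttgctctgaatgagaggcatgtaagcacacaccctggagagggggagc
Both strands were searched for the GC box GGGCGG, the CCAAT box CCAAT, the TATA box TATAAA, the cyclic AMP response element TGACGTCA and the E-box CACGTG, motifs that do not overlap in these windows. GC boxes and CCAAT boxes were found in Blm (2 of each) and Zfp810 (1 of each), and none of the 5 motifs in the other 3 windows. For all 32851 promoters in the table the window was the 120 bases before each entry's own start, not before the outermost annotated one. Of these, 26.5% held a GC box, 21.3% a CCAAT box, 6.34% a TATA box, 1.24% the cyclic AMP element and 3.66% an E-box. The windows differed in base composition, from 39.2% G and C in Mid1 to 65% in Tatdn2, around a median of 54.2% over all promoters. None of the 5 motifs searched for was common to the 5 windows, and other motifs were not searched for.

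Libraries held 10499528 to 17040790 counts. The summed markers of hepatocytes, cardiomyocytes, muscle fibres and neurons were highest in their own tissues (for hepatocytes 92357 to 173079 CPM in liver and at most 5978 CPM elsewhere, in hippocampus). Adipocyte markers were at 1135 to 12487 CPM in epididymal fat but also at 3004 to 6079 CPM in aorta and 83.3 to 9455 CPM in skeletal muscle. Skeletal muscle libraries varied most: the fibre markers Acta1, Ckm, Myh4 and Mylpf summed to 3807 CPM in ob/ob mouse 2 on HFD and to 166410 CPM in WT mouse 1 on ND. These also had the lowest rank correlations with their tissue's median library, 0.913 and 0.926. Lep transcript was present in the epididymal fat of both genotypes, from 467 to 2153 CPM among WT and from 2336 to 4991 CPM among ob/ob libraries, and since the ob allele is a point mutation this level does not check the labels. In whole tissue, a change in the number of cells of a type and a change in RNA per cell cannot be told apart.

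Wdfy1 was higher in ob/ob mice in every tissue, on both diets and in every mouse. In hypothalamus the WT libraries held 16.5 to 19.8 CPM (median 18.4) and the ob/ob libraries 74.4 to 82.8 CPM (median 80.2). In liver the ranges were 5.08 to 7.99 CPM (median 6.26) and 28 to 38.6 CPM (median 30.9). In heart, where Wdfy1 was lowest, they were 4.42 to 6.76 CPM (median 4.74) and 19.2 to 23.9 CPM (median 22.4). The lowest ob/ob library lay well above the highest WT library in each case. The ratio of medians ran from 3.07 in skeletal muscle to 4.94 in liver. On the log2 scale the 14 differences fell between 1.56 ± 0.18 (standard error of the edgeR fit) in skeletal muscle on HFD and 2.35 ± 0.16 in liver on ND, with a median of 2.06. The medians on ND and HFD alone were 2.14 and 2.06.

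All 6 ob/ob libraries lay above all 6 WT libraries in 7 of 7 tissues for Wdfy1, in 6 for Armcx5, Tatdn2 and Nnt, in 3 for Mid1, Zfp810 and Blm, and in 2 for Slc6a6. That makes 36 of 56 gene and tissue pairs. Among all genes tested, the share separated in this way was 9.69% in aorta, 3.92% in epididymal fat, 5.94% in heart, 3.89% in hippocampus, 3.91% in hypothalamus, 7.25% in liver and 4.64% in skeletal muscle, and 0.00881% in all 7 tissues, which is Wdfy1 alone. Since the genes were chosen on this contrast, nothing is read from their counts.

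**Figure D1:**
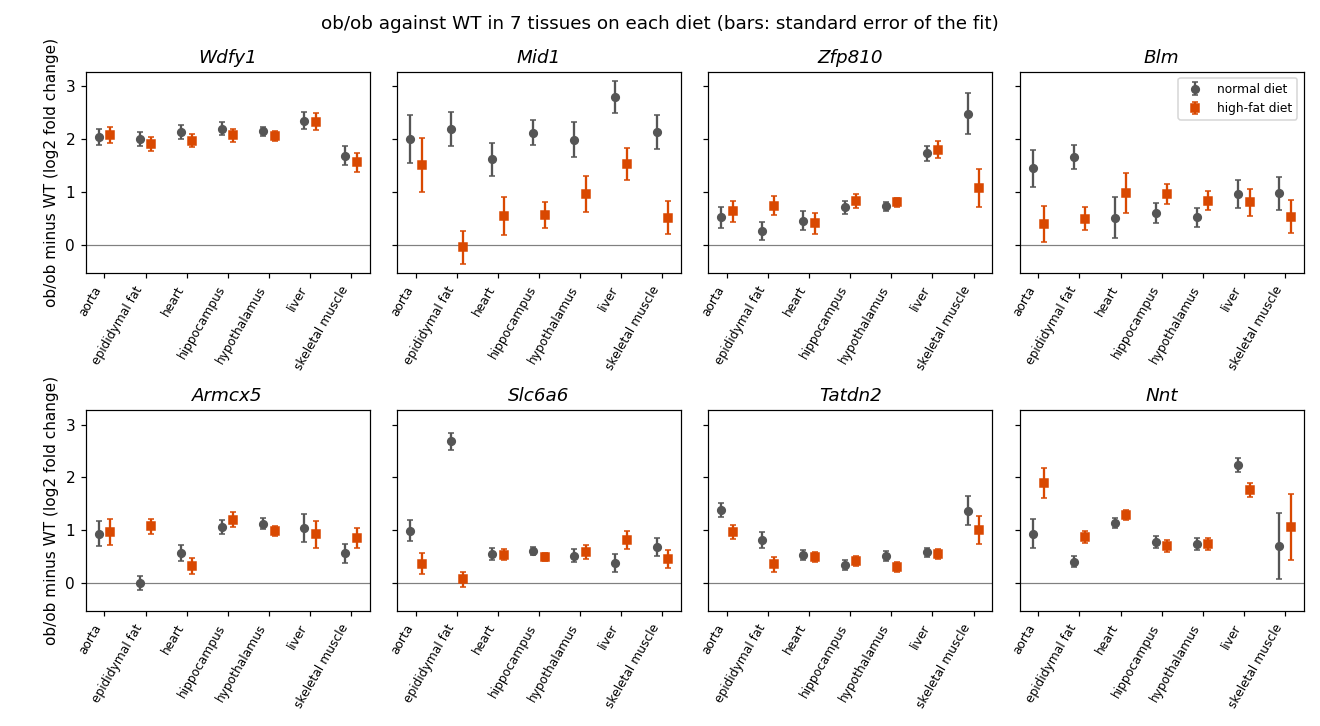
Log2 fold change of ob/ob minus WT (vertical axis) in 7 tissues for each gene, on normal diet (grey circles) and high-fat diet (orange squares), 3 mice per group, with bars for the standard error of the fit. Wdfy1 stays between 1.56 and 2.35, while Mid1 is lower on high-fat than on normal diet in every tissue and Slc6a6 has a single high value of 2.68 in epididymal fat on normal diet.

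Mid1 was the least even of the 8. On ND the ob/ob difference was 1.62 to 2.79 on the log2 scale, with a median of 2.13, and on HFD it was -0.05 to 1.53, with a median of 0.56. In hippocampus the ob/ob mice on ND held 13.8, 9.87 and 19.4 CPM and those on HFD 4.61, 4.60 and 4.29 CPM. WT mice there held 3.75, 3.43 and 2.62 CPM on ND and 3.21, 3.42 and 2.49 CPM on HFD. All ob/ob values thus lay above all WT values, and those on ND stood furthest apart. In epididymal fat on HFD the genotypes overlapped, at 6.75, 9.64 and 11.9 CPM in ob/ob and 10.8, 8.45 and 10.1 CPM in WT mice, and the difference of -0.05 ± 0.31 was the only 1 of the 112 values for the 8 genes that was not above 0. Mid1 was counted at low depth, down to 6 counts in a WT liver library, so single values carry a large counting error.

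Zfp810 ranged from 0.26 ± 0.17 in epididymal fat on ND to 2.48 ± 0.39 in skeletal muscle on ND, with a median of 0.74. In liver it was at 3.36 to 5.96 CPM (median 4.62) in WT and 11.6 to 20.3 CPM (median 15.3) in ob/ob mice. The liver values did not overlap, and on both diets the difference was close to the same size, 1.73 ± 0.15 and 1.80 ± 0.16. In hypothalamus the WT libraries were tightly grouped at 15.5 to 17.4 CPM and the ob/ob libraries at 26.1 to 29.9 CPM, a smaller but equally complete separation. In muscle WT mice held 1.41, 2.22 and 2.51 CPM on ND but 4.90, 5.20 and 4.24 CPM on HFD, and ob/ob mouse 1 on HFD, at 4.40 CPM, lay among them. On ND all 4 adipocyte and all 4 macrophage markers were also called higher in ob/ob muscle (summed levels 4777 to 7879 against 83.3 to 774 CPM, and 454 to 515 against 52.5 to 82.6 CPM). The 4 fibre markers, none of them called, summed to 19712 to 45681 CPM in ob/ob and 75620 to 166410 CPM in WT muscle on ND. On HFD no marker of these 3 lists was called, and the fibre sums were 3807 to 95136 and 64281 to 83940 CPM. The part of cell makeup in the muscle values of any of the 8 genes was not tested.

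The 2 genes of DNA metabolism differed in their pattern. Blm ran from 0.40 ± 0.35 in aorta on HFD to 1.67 ± 0.22 in epididymal fat on ND, with a median of 0.82. In hippocampus its libraries held 2.75 to 5.68 CPM (median 4.08) in WT and 6.66 to 8.36 CPM (median 6.99) in ob/ob mice, without overlap. In heart, where it was at 0.591 to 1.44 CPM in WT and 1.27 to 2.65 CPM in ob/ob mice, the groups overlapped. Tatdn2 had a median of 0.54 and a smallest value of 0.31 ± 0.09 in hypothalamus on HFD. It was highest relative to WT in aorta on ND (1.39 ± 0.13), where the WT mice held 45.6, 32.1 and 39 CPM and the ob/ob mice 102, 101 and 103 CPM. In liver the WT libraries held 32.9 to 38.6 CPM (median 36) and the ob/ob libraries 46.8 to 58.8 CPM (median 53.5). The gap between the genotypes was thus narrow but open in liver, and Tatdn2 overlapped only in epididymal fat.

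Armcx5 was higher by 0.32 to 1.20 in 13 of the 14 comparisons and by 0.01 ± 0.13 in epididymal fat on ND. There the WT mice held 10.5, 13.4 and 10.5 CPM and the ob/ob mice 10.9, 10.9 and 12.8 CPM, which overlap. The same tissue on HFD held 5.59, 5.80 and 5.03 CPM in WT and 12.3, 10.8 and 11.4 CPM in ob/ob mice, so the genotypes were apart on HFD alone. In hippocampus, by contrast, WT libraries held 17.8 to 26.2 CPM (median 22.6) and ob/ob libraries 42.5 to 53 CPM (median 49.5) over both diets.

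Nnt was higher in ob/ob mice by 0.40 ± 0.10 (epididymal fat on ND) to 2.24 ± 0.13 (liver on ND), with a median of 0.90. In heart the WT libraries held 273 to 367 CPM (median 326) and the ob/ob libraries 652 to 794 CPM (median 741). In liver the WT mice on ND held 50.1, 49.3 and 55.1 CPM and the ob/ob mice 240, 241 and 247 CPM. Both tissues showed a full separation. Skeletal muscle was the exception, at 19.5 to 74.6 CPM in WT and 24.9 to 124 CPM in ob/ob mice. There the 2 highest WT libraries for Nnt, mouse 2 on ND and mouse 3 on HFD, were also the highest of the tissue for the slow fibre gene Myh7 (452 and 566 CPM), and ob/ob mouse 2 on HFD, lowest of its genotype for Nnt, had the lowest fibre markers. Other libraries did not pair in this way. The ob/ob mouse 1 on HFD held 103 CPM of Nnt with 45.5 CPM of Myh7. WT mouse 1 on ND was the lowest for Nnt (19.5 CPM) and for Myh7 (0.083 CPM) but had the highest fibre markers (166410 CPM). The part of fibre makeup in the Nnt values was not tested.

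Slc6a6 was higher by 0.37 to 0.99 in 12 of the 14 comparisons, and the other two were both in epididymal fat, at 2.68 ± 0.15 on ND and 0.07 ± 0.14 on HFD. WT fat held 94.1, 101 and 79.8 CPM on ND and 766, 714 and 700 CPM on HFD, and ob/ob fat 726, 526 and 510 CPM on ND and 767, 802 and 721 CPM on HFD. WT mice on ND alone stood low. The macrophage markers Cd68, Adgre1, Csf1r and Mpeg1 summed to 361 to 374 CPM in that group and to 2905 to 3688 CPM in WT fat on HFD, with 2067 to 3129 CPM in ob/ob fat. The adipocyte markers Adipoq, Plin1 and Cidec, without Lep, which was itself higher in ob/ob fat, summed to 8341 to 10945 CPM in WT fat on ND and 776 to 2481 CPM on HFD, and in ob/ob fat to 2400 to 3214 CPM on ND and 2760 to 3455 CPM on HFD. Hepatocyte markers also set that WT group apart, at 1189 to 2354 CPM, against at most 169 CPM in the other fat groups. The part of cell makeup in the Slc6a6 values of fat was not tested. In hippocampus the difference was small and complete, with 101 to 113 CPM in WT and 148 to 171 CPM in ob/ob libraries.

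**Figure D2:**
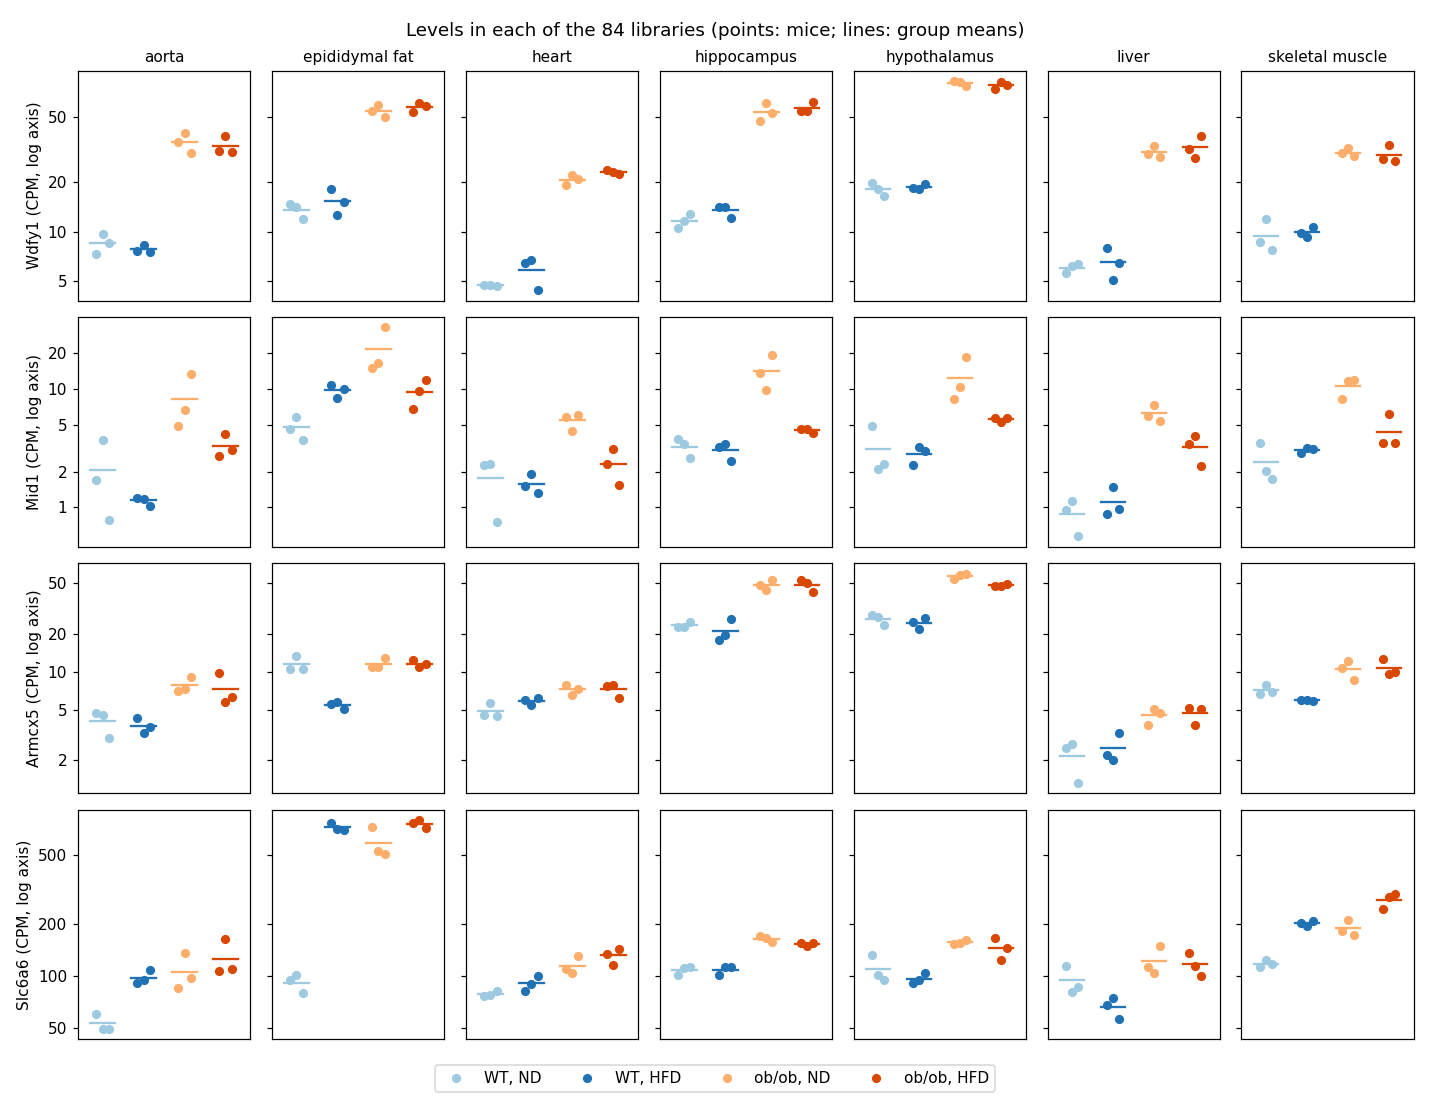
Level in CPM (logarithmic vertical axis, shared along a row) of Wdfy1, Mid1, Armcx5 and Slc6a6 in each of the 84 libraries, by tissue and group, with points for mice and lines for the means of 3. Both ob/ob groups of Wdfy1 lie above both WT groups in every tissue, whereas for Slc6a6 in epididymal fat the WT group on normal diet lies apart at 79.8 to 101 CPM.

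Leaving out the 2 muscle libraries least like their tissue's median kept every muscle difference above 0 but moved several of them. Nnt on ND went from 0.70 to 0.34, Mid1 on HFD from 0.52 to 0.19, Blm on HFD from 0.53 to 0.30, Zfp810 on HFD from 1.08 to 0.72 and Tatdn2 on HFD came to 0.67 on the log2 scale. Others became larger, such as Nnt on HFD from 1.06 to 1.5, Mid1 on ND from 2.13 to 2.49 and Blm on ND from 0.98 to 1.21. Wdfy1 in muscle moved from 1.69 to 1.63 on ND and from 1.56 to 1.45 on HFD.

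Of the 11350 genes fitted in all tissues, 508 kept 1 direction over the 14 comparisons, 233 higher and 275 lower in ob/ob mice. Ranked by the size of their smallest difference, Wdfy1 came first at 1.56, followed by Lcn2, the iron-binding lipocalin-2, at 0.82 and Cirbp, a cold-inducible RNA-binding protein, at 0.59. Nnt ranked at 13, Blm at 14, Tatdn2 at 19, Zfp810 at 29, Slc6a6 at 241 and Armcx5 at 458, and Mid1 had no rank because of its value in fat on HFD. Ranks 4 to 11 were all genes lower in ob/ob mice: Spice1, Banp, Kctd21, Josd2, Zbtb40, Mlh3, Tmem107 and Akr1c14, with smallest differences of -0.59 to -0.45. Mlh3 is a mismatch repair protein that also acts in meiotic recombination. Genes with all 6 ob/ob libraries below all 6 WT libraries in all 7 tissues were Mrpl24, P4ha1 and Ddx17.

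**Figure D3:**
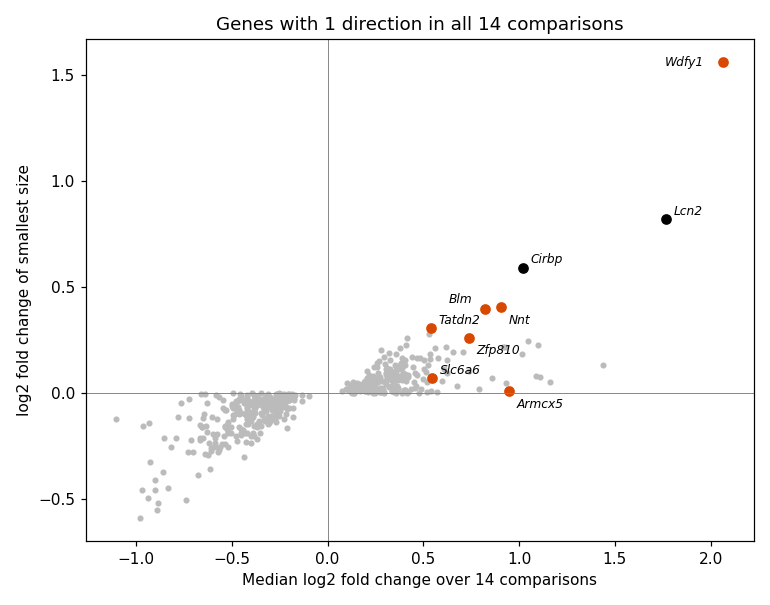
For the 508 genes with 1 direction in all 14 comparisons, the log2 fold change of smallest size (vertical axis) against the median log2 fold change (horizontal axis). Orange points are the genes described here other than Mid1, and black points are Lcn2 and Cirbp; Wdfy1 lies apart at a median of 2.06 and a smallest value of 1.56.

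The level of the 8 genes differed between tissues, most for Nnt and least for Wdfy1 (2.05-fold) and Tatdn2 (1.94-fold). RPKM divides counts by gene length and by library size, here scaled together over all 84 libraries of 7 unlike tissues. The order of tissues depends on that scaling. In WT mice on ND, Slc6a6 had a mean RPKM of 16.5 in liver and 14 in skeletal muscle. Scaled within each tissue, its means were 94.1 CPM in liver and 118 CPM in skeletal muscle, the reverse order. In RPKM, WT mice on ND expressed Nnt at 67 ± 3.70 (SD, n = 3) in heart and 0.953 ± 0.415 in aorta, 70.3-fold apart. Heart stood alone, followed by liver (10.8 ± 0.593) and muscle (6.51 ± 3.89), which overlapped. Zfp810 differed by 6.77-fold between hippocampus (2.27 ± 0.263) and skeletal muscle (0.335 ± 0.0940), with hippocampus, epididymal fat and hypothalamus overlapping in a row at the top. Armcx5 was a gene of both brain regions, at 4.50 ± 0.386 in hypothalamus and 4.37 ± 0.185 in hippocampus, which overlapped, and 0.758 ± 0.260 in liver. Slc6a6, at 16.5 ± 3.26 in liver and 7.15 ± 1.07 in aorta, and Tatdn2, at 16.2 ± 3.16 in epididymal fat and 8.33 ± 0.849 in hypothalamus, were the most abundant of the 8 in every tissue but heart. Wdfy1 was highest in hypothalamus (2.04 ± 0.146) and lowest in heart (0.995 ± 0.0107), and the 5 tissues between them overlapped from each to the next at 1.38 to 1.52. Blm (0.517 ± 0.121 in hypothalamus to 0.107 ± 0.0281 in aorta) and Mid1 (0.510 ± 0.120 in epididymal fat to 0.194 ± 0.0635 in liver) were low everywhere, and every neighbour in their order overlapped.

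Diet, which the choice did not use by itself, was tested in each genotype. In WT mice 11 of 56 gene and tissue pairs passed an adjusted p of 0.05 in edgeR's quasi-likelihood test with Benjamini-Hochberg adjustment over all genes of a tissue, 6 higher and 5 lower on HFD, against 12.1% of all such pairs. Epididymal fat held 7 of the 11, a tissue where 58.9% of all genes were called, aorta 2 (4.21% of all genes) and liver 2 (21.8%). None of the 8 passed in heart (0.256% of all genes), hippocampus, hypothalamus or skeletal muscle (0% in each). At an unadjusted p under 0.05 there were 18 pairs, and the share of all genes at that limit was not counted. Wdfy1 was called in no tissue, its largest diet difference being 0.33 ± 0.15 in heart (adjusted p = 0.549).

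In WT fat Slc6a6 rose on HFD by 2.99 ± 0.16 on the log2 scale (adjusted p = 2.2e-07 by edgeR), Mid1 by 1.04 ± 0.32 (adjusted p = 0.0158), Blm by 0.85 ± 0.22 (adjusted p = 0.00680) and Tatdn2 by 0.45 ± 0.15 (adjusted p = 0.0194). Armcx5 fell by 1.07 ± 0.14 (adjusted p = 7.4e-05), Zfp810 by 0.76 ± 0.17 (adjusted p = 0.00278) and Nnt by 0.61 ± 0.11 (adjusted p = 0.000540). Nnt held 28.7, 26.5 and 25.7 CPM on ND and 14.9, 20.3 and 17.7 CPM on HFD, and Zfp810 17.4, 19.5 and 19.4 against 8.89, 10.5 and 13.7 CPM. The WT groups did not overlap for any of these 7 genes, as for 62.3% of all genes in this tissue. Over the 7 tissues the diet groups of WT mice were apart in 21 of 56 pairs, 11 of them lower on HFD, beside 27.6% of all gene and tissue pairs. That share of all genes was 26.2% in aorta, 14.6% in heart, 5.86% in hippocampus, 7.22% in hypothalamus, 42.1% in liver and 37.8% in skeletal muscle. All 4 macrophage markers rose and 3 of 4 adipocyte markers fell in the same comparison. All 4 hepatocyte, all 3 erythroid and all 3 endothelial markers fell too. So did 2 of 3 smooth muscle and 1 of 2 muscle fibre markers tested, and the 1 hypothalamic neuron marker tested. Hepatocyte markers summed to 1189 to 2354 CPM on ND and 14.4 to 60.3 CPM on HFD. The part of all these markers in the differences of the 7 genes was not tested.

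In aorta Slc6a6 rose by 0.88 ± 0.20 (adjusted p = 0.0275) and Tatdn2 by 0.59 ± 0.13 (adjusted p = 0.0255). In liver Zfp810 fell by 0.54 ± 0.17 (adjusted p = 0.0391) and Slc6a6 by 0.51 ± 0.17 (adjusted p = 0.0474). In aorta 3 of 4 smooth muscle markers fell on the diet (summed level 500 to 1434 CPM on ND and 254 to 483 CPM on HFD). There 1 of 4 cardiomyocyte markers (list sums 142 to 458 and 0.726 to 104 CPM) and 1 of 3 hepatocyte markers tested (682 to 953 and 104 to 116 CPM) also fell. In addition 1 of 4 adipocyte markers rose (3004 to 4862 and 4207 to 4536 CPM for the list). The part of these markers in the aorta calls was not tested. In liver 2 of 4 hepatocyte markers fell (summed level 160607 to 173079 CPM on ND and 118595 to 139307 CPM on HFD) and 2 of 4 macrophage markers rose (75.6 to 260 and 294 to 330 CPM), and 1 of 3 adipocyte markers tested rose (22 to 41.7 and 119 to 184 CPM for the list). Their part in the liver calls was not tested. All 4 calls lay near the threshold. With a mouse left out the fold changes stayed at 0.80 to 0.99 for Slc6a6 and 0.47 to 0.72 for Tatdn2 in aorta, and at -0.68 to -0.46 for Zfp810 and -0.61 to -0.34 for Slc6a6 in liver. Each of those in aorta was lost without any 1 of WT mice 2 and 3 on ND or 1, 2 and 3 on HFD (adjusted p up to 0.111 for Slc6a6 and 0.0858 for Tatdn2). Zfp810 in liver was lost without WT mouse 1 or 2 on ND, WT mouse 2 or 3 on HFD, or mouse 1 of the ob/ob group on ND (up to 0.128), and with DESeq2 (0.0512). Slc6a6 in liver was lost without WT mouse 1 or 3 on ND, any WT mouse on HFD, mouse 1 of the ob/ob group on ND or mouse 2 of that on HFD (up to 0.206), and with the mouse number as a block (0.0575). In fat, Mid1 was lost without WT mouse 3 on ND (0.0523) and Tatdn2 without that mouse (0.0586) or WT mouse 1 on HFD (0.0617), whereas the other 5 calls there passed without any 1 mouse. The 11 calls became 6 without WT mouse 3 on ND and 7 without WT mouse 1 or mouse 2 on HFD. The share of all genes called with a mouse left out was not counted.

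**Figure D4:**
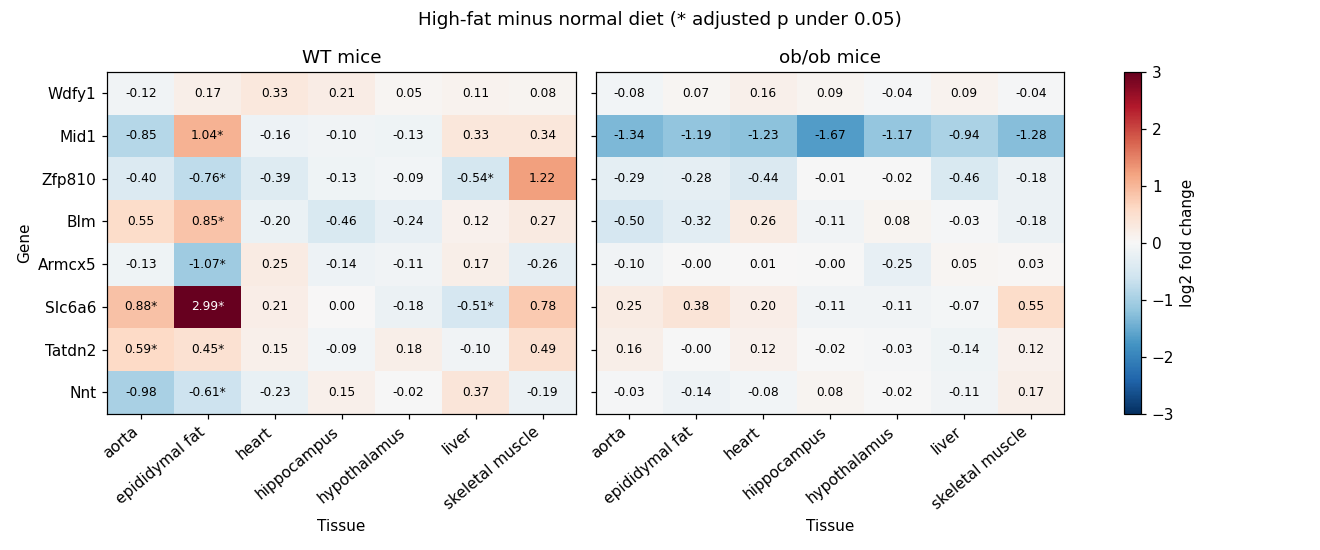
Log2 fold change of high-fat minus normal diet for the 8 genes (rows) in 7 tissues (columns), in WT mice (left) and ob/ob mice (right), with an asterisk where edgeR's adjusted p is under 0.05. WT epididymal fat holds 7 of the 11 asterisks, and the Mid1 row of ob/ob mice is negative in all 7 tissues.

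In ob/ob mice 0 of 56 pairs passed edgeR's adjusted threshold, against 0.117% of all such pairs. Over all genes 0.913% were called in liver, 0.0219% in heart and 0% in each other tissue. At an unadjusted p under 0.05 there were 12 pairs, Mid1 in each of the 7 tissues among them. The share of all genes at that unadjusted limit was not counted. The count of pairs that passed the adjusted threshold was 2 with DESeq2 and 6 in edgeR without the filter on low counts. It was 1 with the mouse number as a block or without ob/ob mouse 2 on ND. The share of all genes called under these settings was not counted. Mid1 was lower on HFD in all 7 tissues, by 0.94 ± 0.25 in liver to 1.67 ± 0.23 in hippocampus on the log2 scale, with adjusted p of 0.115 in liver, 0.204 in heart, 0.278 in hippocampus and at least 0.903 in the others by edgeR. In liver the ob/ob mice held 5.95, 7.30 and 5.42 CPM on ND and 3.43, 4.03 and 2.25 CPM on HFD, and in skeletal muscle 8.18, 11.8 and 11.9 CPM on ND and 3.52, 6.12 and 3.47 CPM on HFD. The 3 libraries on HFD lay below the 3 on ND in each of the 7 tissues. Without ob/ob mouse 3 on ND the difference was -0.82 in aorta (from -1.34), -0.75 in epididymal fat (from -1.19) and -0.75 in hypothalamus (from -1.17). Among all genes such a separation was found in 4.95% in aorta, 6.89% in epididymal fat, 8.56% in heart, 3.75% in hippocampus, 7.47% in hypothalamus, 9.04% in liver and 1.26% in skeletal muscle, and in all 7 tissues in 0.00881%, which is Mid1 alone. DESeq2 called Mid1 in hippocampus (adjusted p = 1.7e-05), edgeR without the filter in 5 tissues (adjusted p = 1.9e-06 to 0.0378), and the block in liver (adjusted p = 0.0481). Without the filter edgeR's prior degrees of freedom were infinite in 3 of those 5 tissues, heart, hypothalamus and liver. The lowest of these adjusted p-values, in hypothalamus, came from such a fit. Since the 7 tissues come from the same 6 ob/ob mice, this is a difference between 3 mice and 3 others seen 7 times. The diet difference of the remaining genes in ob/ob mice was within -0.50 to 0.55 in every tissue, and Slc6a6 in skeletal muscle was the highest (0.55 ± 0.17, not called by edgeR, adjusted p = 0.0465 by DESeq2).

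With equal numbers read as the same mouse, mice of 1 group also differed in a way that their tissues shared, most of all for Mid1. Of the variance of its log2 CPM within groups, 51.2% lay between mice, where 14.3% would fall between mice if tissues varied independently, and the median over 11350 genes was 16.5%. This share was at the 99.8th percentile of all genes for Mid1 and at the 96.9th for Armcx5 (33.8%). It was 24.6% for Wdfy1, 20.7% for Nnt, 13.3% for Tatdn2, 10.5% for Blm, 7.67% for Zfp810 and 6.99% for Slc6a6. With 1 mouse left out the share for Mid1 was 36.7% (without WT mouse 3 on ND) to 58.9%, and that for Armcx5 28% to 36.6%. The lower shares moved more, to 1.69% for Zfp810 and 8.76% for Tatdn2 without ob/ob mouse 3 on ND, to 16.4% and 19.7% without ob/ob mouse 1 on HFD, to 2.17% for Slc6a6 without WT mouse 1 on ND and 4.48% without WT mouse 3 on ND, and to 6.19% for Blm without WT mouse 3 on HFD. WT mouse 3 on ND was below its group's mean for Mid1 in 7 of 7 tissues, by 0.28 to 1.02 on the log2 scale, and WT mouse 1 on ND above it in 7. In the ob/ob group on ND, mouse 3 was above the mean in 6 tissues, with the largest deviations in aorta (0.79), epididymal fat (0.69) and hypothalamus (0.67), and below it in liver (-0.18). For Armcx5, WT mouse 3 on ND was above its group's mean in 1 tissue only.

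**Figure D5:**
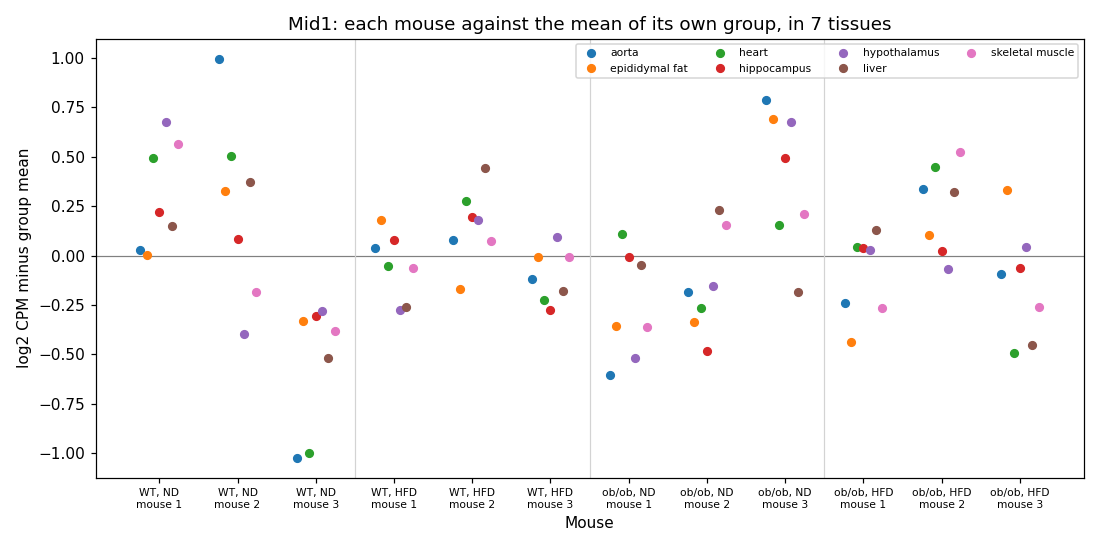
Log2 CPM of Mid1 minus the mean of the mouse's own group (vertical axis) for each of the 12 mice (horizontal axis), with a colour for each tissue. WT mouse 3 on normal diet lies below 0 in all 7 tissues and ob/ob mouse 3 on normal diet above 0 in 6.

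Neighbouring genes were called in both directions, at a share close to that of all genes. Of 139 tested neighbours with a start within 500 kb, 238 of 740 gene and tissue pairs were called for ob/ob versus WT as the mean of both diets, 125 higher and 113 lower. That is 32.2%, beside 31.8% of all pairs tested, 16.7% higher and 15.1% lower. By tissue the share of all genes called was 48.6% in skeletal muscle, 42.8% in liver, 39.6% in aorta, 35.9% in epididymal fat, 30.1% in heart, 15.5% in hypothalamus and 13.9% in hippocampus. By gene the share ran from 2 of 19 pairs (10.5%) around Mid1 and 9 of 37 (24.3%) around Wdfy1 to 23 of 54 (42.6%) around Armcx5, where 18 were higher and 5 lower. No neighbour was called in 1 direction in all 7 tissues. Those called in the most tissues, 5 each, were Tceal8 beside Armcx5 and Brpf1 beside Tatdn2, both higher, Bbs9 beside Zfp810, Mrps25 beside Slc6a6 and the unnamed ENSMUSG00000094114 beside Nnt, all lower, and Man2a2 beside Blm, lower in 4 and higher in 1. Tceal8 was higher by 1.38 ± 0.08 in liver (adjusted p = 1.5e-07 by edgeR).

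The 2 well expressed genes that overlap Wdfy1 and Armcx5 were called higher in no tissue. No ob/ob difference is given here for Ndufab1-ps, which overlaps Blm. Mrpl44, whose start lies 0.125 kb from that of Wdfy1, encodes a protein of the mitochondrial ribosome. It was lower in aorta (-0.46 ± 0.13, adjusted p = 0.0116) and skeletal muscle (-0.52 ± 0.12, adjusted p = 0.00728) by edgeR and passed in no other tissue. Gprasp1, a receptor sorting protein in whose gene Armcx5 lies, fell in aorta, epididymal fat, heart and skeletal muscle, by 0.26 ± 0.09 to 0.86 ± 0.16 (adjusted p = 0.0363 to 0.00157 by edgeR), and was not called in the other three.

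Genes related to the 8 by family or function were called in 225 of 597 gene and tissue pairs, 136 higher and 89 lower. That is 37.7%, with 31.1% to 46.1% in the 9 lists, beside the 31.8% of all pairs given above, and the difference was not tested. Members of the WDFY family and of TLR3 and TLR4 signalling passed in 26 of 74 pairs, 17 higher and 9 lower (median log2 fold change 0.03, beside 0.00 over all genes). In that list Irf3, the transcription factor activated downstream of these receptors, was lower in 7 of 7 tissues, from -0.20 ± 0.07 in heart (adjusted p = 0.0469) to -0.80 ± 0.10 in hippocampus (adjusted p = 0.00102) by edgeR. Its upstream kinase Tbk1 was higher in aorta, epididymal fat, liver and muscle, by 0.33 ± 0.09 to 0.62 ± 0.08. Partners and relatives of Mid1 passed in 19 of 61 pairs, 18 higher and 1 lower (median 0.15). The paralogue Mid2 rose in 4 tissues, by 1.08 ± 0.23 in muscle (adjusted p = 0.00487 by edgeR), and Mid1ip1 in aorta, epididymal fat, heart and liver.

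Zinc finger relatives of Zfp810 passed in 19 of 61 pairs, 10 higher and 9 lower (median -0.02). Zfp26 rose in 5 tissues and Zfp426 fell in 3. The list of the Blm complex and RecQ helicases passed in 35 of 87 pairs, 21 higher and 14 lower (median 0.12). Top3a, the topoisomerase that works with Blm, rose in 6 tissues, by 0.33 ± 0.13 in liver to 0.53 ± 0.10 in hippocampus, and 0.08 ± 0.16 in heart was not called (adjusted p = 0.753 by edgeR). The helicase Recql5 fell in 5 tissues. The remaining TatD nucleases, Tatdn1 and Tatdn3, fell in 5 of 14 pairs and rose in none (median -0.06). Tatdn1 was lower by 1.28 ± 0.30 in muscle (adjusted p = 0.00686 by edgeR).

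The ARMCX and GPRASP family passed in 19 of 60 pairs, 9 higher and 10 lower (median -0.02), with Armc10 higher in 4 tissues. Genes of taurine synthesis and transport passed in 24 of 62 pairs, 16 higher and 8 lower (median 0.02). The creatine transporter Slc6a8 rose in 4 tissues, by 1.65 ± 0.14 in liver (adjusted p = 1.6e-06), and fell by 0.97 ± 0.17 in muscle (adjusted p = 0.00228) by edgeR. Slc36a1, which carries small amino acids, rose in 3 tissues and fell in liver. Other sources of NADPH passed in 47 of 102 pairs, 30 higher and 17 lower (median 0.04), and Mthfd2, a mitochondrial folate enzyme, was called in 6 tissues, higher in 3 and lower in 3. H6pd, which makes NADPH in the endoplasmic reticulum, rose in 2 and fell in 3. Mitochondrial peroxide and thiol defence passed in 31 of 76 pairs, 15 higher and 16 lower (median -0.01), and Sod2, the mitochondrial superoxide dismutase, rose in 2 tissues and fell in 4. The peroxidase Prdx3 rose in liver and fell in 3 tissues. The lists overlap in mice and libraries, and none of these shares was tested against genes at large.

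Over the 84 libraries, after each tissue was centred, the levels of the 8 genes moved together to differing degrees. Pearson's r for their 28 pairs ran from 0.24 (Armcx5 with Slc6a6) to 0.83 (Wdfy1 with Armcx5), with a median of 0.65. The points share mice and the genotype difference that the genes were chosen for, so these values describe the choice as well. The gene most like Wdfy1 was Cirbp (r = 0.89), followed by Rbm3 (0.88), both cold-inducible RNA-binding proteins, and the most opposite was P4ha1 (-0.87), a collagen prolyl hydroxylase. Cirbp was also the closest to Armcx5 (0.84), and P4ha1 the most opposite (-0.83). Nnt, Mid1 and Blm were each most like Wdfy1 (0.80, 0.75 and 0.77), with the heat shock protein gene Hsph1 most opposite to Nnt (-0.81). Slc6a6 was most like Gna13 (0.88) and Tpd52 (0.85) and most opposite to Cenpv (-0.82). Tatdn2 was most like the amino acid transporter genes Slc3a2 (0.88) and Slc38a7 (0.87) and most opposite to Rdm1 (-0.87). Zfp810 was most like Ldb1 (0.84) and Spats2 (0.83) and most opposite to Chordc1 (-0.85). The next after Wdfy1 for Mid1 was Rlim (0.73), a ubiquitin ligase gene on X.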

How the data were processed

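Deposited counts are whole fragments per Ensembl gene in 84 libraries, with no normalization. Per the file headers, the authors counted paired-end alignments over exons with featureCounts 1.5.1 and no strand option, so genes that overlap or have near-identical copies are uncertain. The submitters' processing notes name Trimmomatic 0.36 for trimming, HISAT2 2.0.5 as aligner, the build GRCm38 and featureCounts 1.5.0-p2. The deposited gene length, an other value, was used for RPKM. Groups come from the sample titles (6 spell HFD as HDF). No replicates agreed within sampling noise (chi-square per degree of freedom 2.63 to 569.7). The labels do not describe the mice further, so p-values measure the spread between these samples.

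Each tissue was fitted by itself in edgeR 4.0.16 (R 4.3.3): filterByExpr (count 10, total 15), TMM scaling, 4 group means, quasi-likelihood test, Benjamini-Hochberg adjustment within tissue and contrast, threshold 0.05. The standard error is the log2 fold change divided by the square root of F. CPM are relative to TMM-scaled library sizes, with a prior count of 2 in log2 CPM. The fit was run on counts simulated for liver and hypothalamus with known changes in few genes. Far more genes were called in the data, so the simulation does not cover shifts that broad. Alternatives were DESeq2 1.42.0, its size factors, a fit without the filter, a block on mouse number, leaving out each mouse, a 1 Mb window, a prior count of 0.5 and, added after the data were seen, muscle without 2 libraries.

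The genes and lists were chosen with earlier results of these data known. Named beyond the 8 are Lep, neighbours called in at least 4 tissues (here those in 5), the 2 genes most like and the 1 least like each gene, the 10 most even other genes, and 2 genes per list, with Mrpl44 named for its overlap and Mrpl24 and Ddx17 for their separation after values were seen. The 2 genes of each list were those called in the most tissues. Adjusted p-values of these genes and of the named neighbours thus belong to genes picked by the same test. The deposited blood, body composition and organ weight values per mouse were not used.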

Additional observations from a re-analysis of the deposited data

Results flagged for a closer look

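Mid1 in epididymal fat was higher on HFD in all 3 WT mice (1.04 on the log2 scale) and lower in all 3 ob/ob mice (-1.19) than in any mouse of the same genotype on ND. The difference between these diet effects was not tested, since both genotype contrasts were used to choose the gene.

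In 4 cases the diet groups of 1 genotype did not overlap in several tissues and the direction was not the same in all of them. The differences between tissues were not tested. Such a gap between the WT diet groups was found in 21 of 56 pairs of the 8 genes and in 27.6% of all pairs, from 5.86% of all genes in hippocampus to 62.3% in epididymal fat. In ob/ob mice it was found in 15 of 56 pairs, Mid1 in all 7 tissues among them. The share of all genes in ob/ob mice was 17.9% in liver, 17% in heart, 15% in hypothalamus, 13.1% in epididymal fat, 9.32% in aorta, 6.83% in hippocampus and 2.14% in skeletal muscle. Zfp810 in WT mice was lower on HFD in aorta (-0.40), epididymal fat (-0.76), heart (-0.39), hypothalamus (-0.0926) and liver (-0.54), and higher in skeletal muscle (1.22), and edgeR called only fat and liver (adjusted p = 0.145 for muscle, 0.26 for aorta, 0.575 for heart and 0.91 for hypothalamus). Slc6a6 in WT mice was higher on HFD in aorta (0.88), epididymal fat (2.99), heart (0.21) and skeletal muscle (0.78), and lower in liver (-0.51), with heart (adjusted p = 0.587) and muscle (0.101) not called by edgeR. Tatdn2 in WT mice was higher in aorta (0.59), epididymal fat (0.45) and skeletal muscle (0.49), and lower by a small amount in hippocampus (-0.0905), with muscle (adjusted p = 0.347) and hippocampus (0.999) not called. Slc6a6 in ob/ob mice was higher on HFD in skeletal muscle (0.55) and lower by a small amount in hippocampus (-0.11), and neither was called.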

How the results depend on the processing

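Of the 112 ob/ob differences, 110 to 112 were above 0 when each mouse was left out. Those that crossed 0 were 3 values in epididymal fat, namely Armcx5 on ND (from 0.01 to between -0.05 and -0.04, without WT mouse 1 or 3 or ob/ob mouse 3 on ND), Slc6a6 on HFD (from 0.07 to -0.01 without WT mouse 3 and -0.02 without ob/ob mouse 2 on HFD) and Mid1 on HFD (from -0.05 to 0.01 without WT mouse 1 and 0.13 without ob/ob mouse 1 on HFD). Diet calls for the 8 genes in WT mice numbered 11, and 6 to 13 with a mouse left out. In ob/ob mice the 0 calls became 2 with DESeq2, 6 without the filter on low counts, 1 with the replicate block (mouse number as a term), and 0 to 1 with a mouse left out. For these other settings the share of all genes called for diet was not counted in either genotype. Without the filter, edgeR's prior degrees of freedom were infinite in 3 of 7 tissues, against 3.13 to 8.86 with it. Calls among neighbours went from 238 to 366 with a window of 1 Mb, which holds more genes, and were 200 to 243 with a mouse left out. Calls in the lists were 225, with 192 to 220 when a mouse was left out, and the median share of variance between mice was 17%, with 14.3 to 20.6%. The block lost 1 diet call in WT mice, Slc6a6 in liver, and gained Mid1 in liver of ob/ob mice. Mouse numbers name different animals in each group, and same-numbered libraries deviated together no more than others (r over 0.1 in 28 of 126 pairs, and in 61 of 252 with different numbers). Low counts of Mid1 and Blm limit single values.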
